A study of Culex pipiens pallens and Culex quinquefasciatus with 12 samples.

Results

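Of 17757 *Culex* gene models with reads, 7 were read in every pallens pool and almost unread in quinquefasciatus 1 to 4. They are a ferritin heavy chain, a tryptase-2 precursor, a 60S ribosomal protein L7 model and 4 models described only as hypothetical. The 7 were chosen by their reads: at least 5 reads in each of pallens 1 to 7, and at most 1 read in each of quinquefasciatus 1 to 4. The remaining pool, quinquefasciatus 5, took no part in these read limits, so they did not set its values. The members were chosen with earlier results of these data known, so its values are not a fully independent measurement. The contrast between the pallens pools and quinquefasciatus 1 to 4 made the choice and is given below as a description, with no test.

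The study sequenced poly(A) RNA of whole mosquito larvae from 2 subspecies of the *Culex pipiens* complex, with 7 pools of *C. p. pallens* and 5 of *C. p. quinquefasciatus*. Each pool held the RNA of 30 larvae, and the libraries did not record the strand. The series title speaks of different levels of resistance, but no level, agent, strain, age or place is given for any pool. No label says that pools of a subspecies came from separate populations, so the tests below measure spread among these pools, which may be technical.

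Ferritin is the shell-shaped protein that stores iron. Its heavy chain carries the site that oxidises iron, and insect ferritin is also secreted and moves iron between tissues. Tryptases are trypsin-like serine proteases, named after enzymes of mammalian mast cells, and in mosquito larvae many trypsin-like enzymes digest food in the midgut. Ribosomal protein L7 is a part of the large ribosomal subunit of every cell.

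In units of 1000 uniquely mapped reads, library totals ran from 3885 to 4860 in the pallens pools, stood at 4579 in quinquefasciatus 5, and ran from 4408 to 5183 in quinquefasciatus 1 to 4. No pair of pools looked like a library deposited again, since even the closest, pallens 6 and pallens 7, had a chi-square of 11.5 per degree of freedom. Distances between pools used library totals scaled by TMM factors. Over all genes tested, quinquefasciatus 5 lay nearest to pallens 1, with a root mean square difference of 0.637 in log2(CPM + 1). Its mean difference was 0.961 to the pallens pools and 0.849 to quinquefasciatus 1 to 4. Pallens 1 and pallens 4 were also nearer to quinquefasciatus 1 to 4, at 0.827 and 0.736, than to the other pallens pools, at 0.990 and 0.828. The remaining pallens pools were nearer to pallens pools. This measure thus did not separate the labels for every pool. Summed larval storage protein genes stood at 38374 to 156513 CPM in the pallens pools, 125199 CPM in quinquefasciatus 5 and 95912 to 167851 CPM in quinquefasciatus 1 to 4. All 12 genes of that list, which the larval fat body makes, were read in every pool. For this list and those of cuticle, gut, muscle, testis and adult female genes, the range of quinquefasciatus 1 to 4 overlapped that of the pallens pools. Quinquefasciatus 5 itself lay outside both ranges for 4 lists: cuticle at 1312 CPM and testis at 556 CPM were below them, and muscle at 43221 CPM and adult female genes at 1066 CPM above them. Its gut genes, at 14133 CPM, were above every pallens pool and within the range of quinquefasciatus 1 to 4. The part of these differences in the members' reads was not tested.

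Together the 7 models had 158, 158, 131, 130, 113, 135 and 187 reads in pallens 1 to 7. They had 137 reads in quinquefasciatus 5, and 2, 2, 1 and 2 reads in quinquefasciatus 1 to 4. As CPM, reads scaled by the library total alone, that was 26.8 to 43.6 in the pallens pools, 29.9 in quinquefasciatus 5 and 0.194 to 0.454 in quinquefasciatus 1 to 4. The summed level in quinquefasciatus 5 thus lay inside the pallens range, although the pool carries the quinquefasciatus label. In pools of whole larvae, fewer cells that use a gene and less RNA per cell cannot be told apart.

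All 7 were read in quinquefasciatus 5, and 5 of the 7 had at least 5 reads there. Among the 2634 gene models with at most 1 read in each of quinquefasciatus 1 to 4, 1.67% had at least 5 reads in quinquefasciatus 5. Among the 10026 models with at least 5 reads in every pallens pool, 97.8% did. These shares are a background for the members, which meet both conditions. RPKM values, which are reads scaled by model length and library total, lay within the pallens range in quinquefasciatus 5 for the same 5 members. For the other 2, CPIJ005605-RA and CPIJ010457-RA, every pallens pool was above all 5 quinquefasciatus pools. Over all gene models read, 0.665% had every pallens pool above every quinquefasciatus pool. The choice had already placed every pallens pool above quinquefasciatus 1 to 4 for the members. Only quinquefasciatus 5 was free, so this share is no test of the members.

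**Figure D1:**
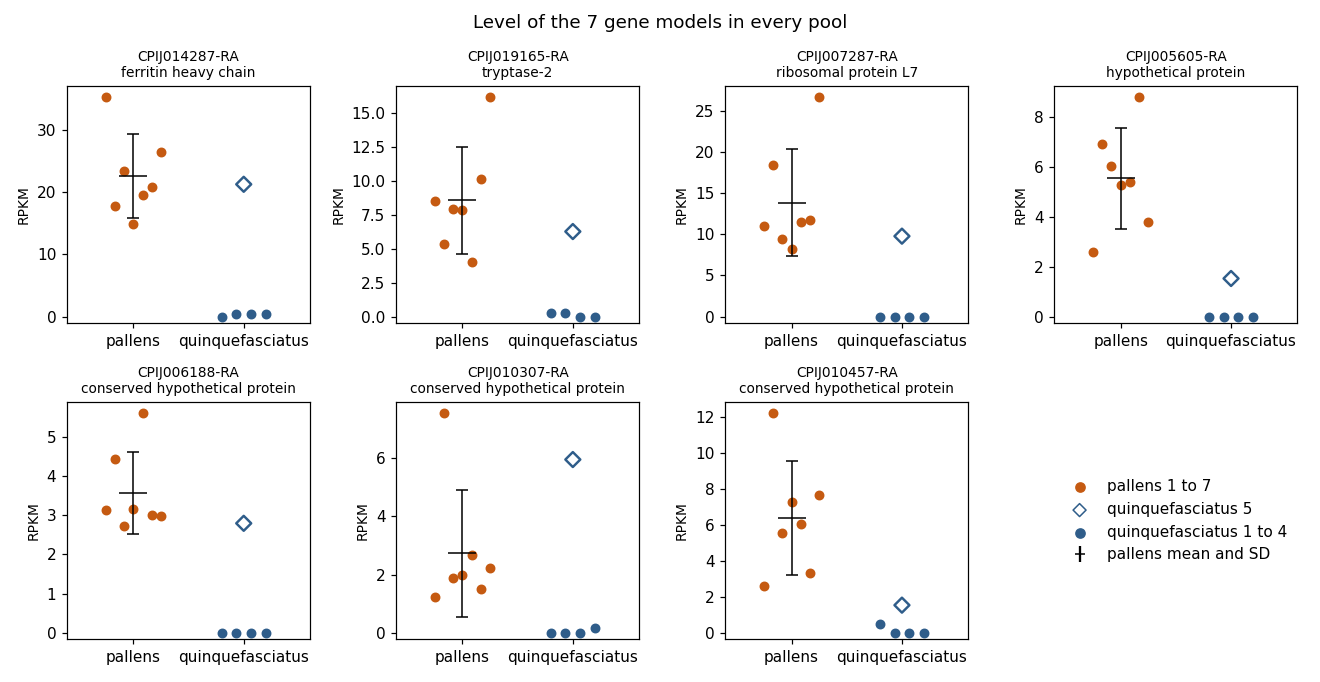
RPKM of the 7 members in each pool, 1 panel per member with its own axis, with pallens pools on the left (bar, mean and SD) and on the right quinquefasciatus 5 (open diamond) and quinquefasciatus 1 to 4 (filled points). Quinquefasciatus 5 sits with the pallens pools for 5 members, and below all of them, at 1.53 and 1.54 RPKM, for CPIJ005605-RA and CPIJ010457-RA.

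The ferritin heavy chain, CPIJ014287-RA, was the most strongly read of the 7. It lies on supercont3.549 at 63417 to 63971, on the minus strand, with a model length of 555 bases. It had 88, 40, 55, 40, 42, 49 and 63 reads in pallens 1 to 7, 54 reads in quinquefasciatus 5, and 0, 1, 1 and 1 reads in quinquefasciatus 1 to 4. The pallens pools therefore all carried the transcript, with pallens 1 the highest, and neither they nor quinquefasciatus 5 overlapped quinquefasciatus 1 to 4. Its level was 14.8 RPKM at the lowest, 20.8 at the median and 35.3 at the highest in the pallens pools, with a mean of 22.6 ± 6.73 (SD, n = 7). In quinquefasciatus 5 it was 21.3 RPKM, with an exact 95% Poisson interval of 16.0 to 27.7 that covers counting error only. That is 0.941 of the pallens mean. Over the summed reads, the pallens pools were 82.8-fold above quinquefasciatus 1 to 4, with a counting interval of 28.1 to 403. The choice set this contrast, so this fold, those of the other members below and their counting intervals are descriptions. The intervals leave out the spread among pools.

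The tryptase-2 precursor, CPIJ019165-RA, was the other member with over 10 reads in every pallens pool. It lies on supercont3.1651 at 38873 to 39822, on the minus strand, and was the only model with reads on that scaffold. It had 32, 18, 28, 32, 13, 36 and 58 reads in pallens 1 to 7, 24 in quinquefasciatus 5, and 1, 1, 0 and 0 in quinquefasciatus 1 to 4. Its pallens level spread from 3.998 to 16.2 RPKM around a median of 7.89, with pallens 7 the highest and pallens 5 the lowest. The mean was 8.56 ± 3.93 RPKM (SD, n = 7). Quinquefasciatus 5, at 6.26 RPKM (exact 95% Poisson interval 4.01 to 9.32), lay among the pallens pools. The pallens pools stood 71.5-fold above quinquefasciatus 1 to 4 over the summed reads, with a counting interval of 19.5 to 594.

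The ribosomal protein L7 model, CPIJ007287-RA, is short, at 201 bases of model over a span of 12726 bases on supercont3.152 (288417 to 301142, minus strand). It had 10, 15, 8, 8, 9, 10 and 23 reads in pallens 1 to 7, 9 in quinquefasciatus 5 and none in quinquefasciatus 1 to 4. Its level was 8.19 to 26.7 RPKM in the pallens pools, with a median of 11.5 and a mean of 13.9 ± 6.53 (SD, n = 7). Quinquefasciatus 5 stood at 9.78 RPKM (exact 95% Poisson interval 4.47 to 18.6), near the low end of the pallens pools. With 3 reads over quinquefasciatus 1 to 4 together as the limit that a count of 0 allows, the pallens pools were at least 18.2-fold higher.

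The 4 undescribed models were read about as thinly as the L7 model, at 5 to 38 reads per pallens pool. CPIJ006188-RA (supercont3.118, 17688 to 22914, plus strand) was the most even of them over the pallens pools. It had 11, 14, 9, 12, 17, 10 and 10 reads in pallens 1 to 7, 10 in quinquefasciatus 5 and none in quinquefasciatus 1 to 4. The deposited annotation gives it terms for protein serine/threonine kinase activity, actin cytoskeleton organization and humoral immune response. It averaged 3.57 ± 1.05 RPKM in the pallens pools (SD, n = 7) and stood at 2.79 RPKM in quinquefasciatus 5, with an exact 95% Poisson interval of 1.34 to 5.13. The pallens pools were at least 18.2-fold above quinquefasciatus 1 to 4 on the same limit of 3 reads.

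CPIJ010307-RA (supercont3.295, 208998 to 210494, minus strand) was the member that varied most among the pallens pools, with a coefficient of variation of 79.6%. It had 7, 38, 10, 12, 13, 8 and 12 reads in pallens 1 to 7, 34 in quinquefasciatus 5, and 0, 0, 0 and 1 in quinquefasciatus 1 to 4. Pallens 2 and quinquefasciatus 5 stood together above the other pallens pools. They reached 7.53 and 5.95 RPKM, against a pallens median of 1.98 RPKM. Quinquefasciatus 5 was at 2.18 times the pallens mean of 2.73 ± 2.17 RPKM (SD, n = 7), the only member above that mean there. The summed reads gave a fold of 65.9 for the pallens pools over quinquefasciatus 1 to 4, with a counting interval of 11.6 to 2628.

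CPIJ005605-RA (supercont3.95, 423061 to 433155, plus strand) and CPIJ010457-RA (supercont3.324, 75412 to 76075, minus strand) were the members with the least signal in quinquefasciatus 5. CPIJ005605-RA had 5, 12, 11, 11, 9, 16 and 7 reads in pallens 1 to 7, 3 in quinquefasciatus 5 and none in quinquefasciatus 1 to 4. CPIJ010457-RA had 5, 21, 10, 15, 10, 6 and 14 reads in pallens 1 to 7, 3 in quinquefasciatus 5, and 1, 0, 0 and 0 in quinquefasciatus 1 to 4. In both models quinquefasciatus 5 was below every pallens pool, at 0.275 and 0.241 of the pallens mean. CPIJ005605-RA averaged 5.55 ± 2.02 RPKM in the pallens pools (SD, n = 7) and was at 1.53 RPKM in quinquefasciatus 5, with an exact 95% Poisson interval of 0.315 to 4.46. CPIJ010457-RA averaged 6.37 ± 3.18 RPKM in the pallens pools (SD, n = 7) and was at 1.54 RPKM in quinquefasciatus 5, with an exact 95% Poisson interval of 0.317 to 4.49. Both intervals reach above the lowest pallens pool, at 2.59 and 2.61 RPKM, so a difference from that pool was not detectable at this depth.

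Just inside the choice, the lowest pallens pool of both CPIJ005605-RA and CPIJ010457-RA had 5 reads. Just outside it were 3 models that missed by 1 read in 1 pool. CPIJ016767-RA, a conserved hypothetical protein, had 17 to 53 reads in the pallens pools, 30 in quinquefasciatus 5, and 2, 0, 1 and 0 in quinquefasciatus 1 to 4. CPIJ005232-RA, also hypothetical, had 6 to 16 reads in the pallens pools, 4 in quinquefasciatus 5, and 0, 0, 2 and 0 in quinquefasciatus 1 to 4. CPIJ006487-RA, described as an MRG-binding protein, had 5 to 10 reads in the pallens pools, 5 in quinquefasciatus 5, and 1, 1, 1 and 2 in quinquefasciatus 1 to 4. These 3 were read in quinquefasciatus 5 as well. The mirrored choice, with the pallens pools at most at 1 read and quinquefasciatus 1 to 4 at least at 5 reads, held 0 models. It asks for few reads in more pools than the choice does, so the counts are not like for like. Of all models, 14.8% had at most 1 read in each of quinquefasciatus 1 to 4. The share with so few reads in every pallens pool is not given here.

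The deposited coverage shows how many bases of a model the reads covered, but not where on the model they lay. A single read covered 49 bases. In the L7 model, 5 of 7 pallens pools covered 49 bases, the width of 1 read, and in pallens 7 all 23 reads lay within them. The widest coverage of that model was 77 bases in the pallens pools and 76 bases in quinquefasciatus 5. Ferritin reads were also stacked. In the pallens pools they covered 177 to 248 of 555 bases, 32.7% to 45.3% of what reads placed at random along the model would cover on average, and in quinquefasciatus 5 they covered 188 bases. Over all models and pools with 10 to 100 reads, the median was 86.1% of that coverage and the fifth percentile was 43.4%. CPIJ006188-RA ranged from 39.4% to 79.3% of that coverage in the pallens pools, with pallens 1 and pallens 6 under the fifth percentile. The tryptase-2 reads reached 53.4% to 72.8% in the pallens pools and 49.8% in quinquefasciatus 5. CPIJ005605-RA reached 50.5% to 96.5%, CPIJ010457-RA 58.7% to 74.1% and CPIJ010307-RA 72.6% to 105% in the pallens pools. The values of the L7 and ferritin models therefore rest on a part of each model. In the pallens pools this was 49 to 77 of 201 bases for L7 and 177 to 248 of 555 bases for ferritin. Reads were counted where unique, so reads shared with a near-identical copy would be missing, and the levels of both are uncertain in that respect.

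**Figure D2:**
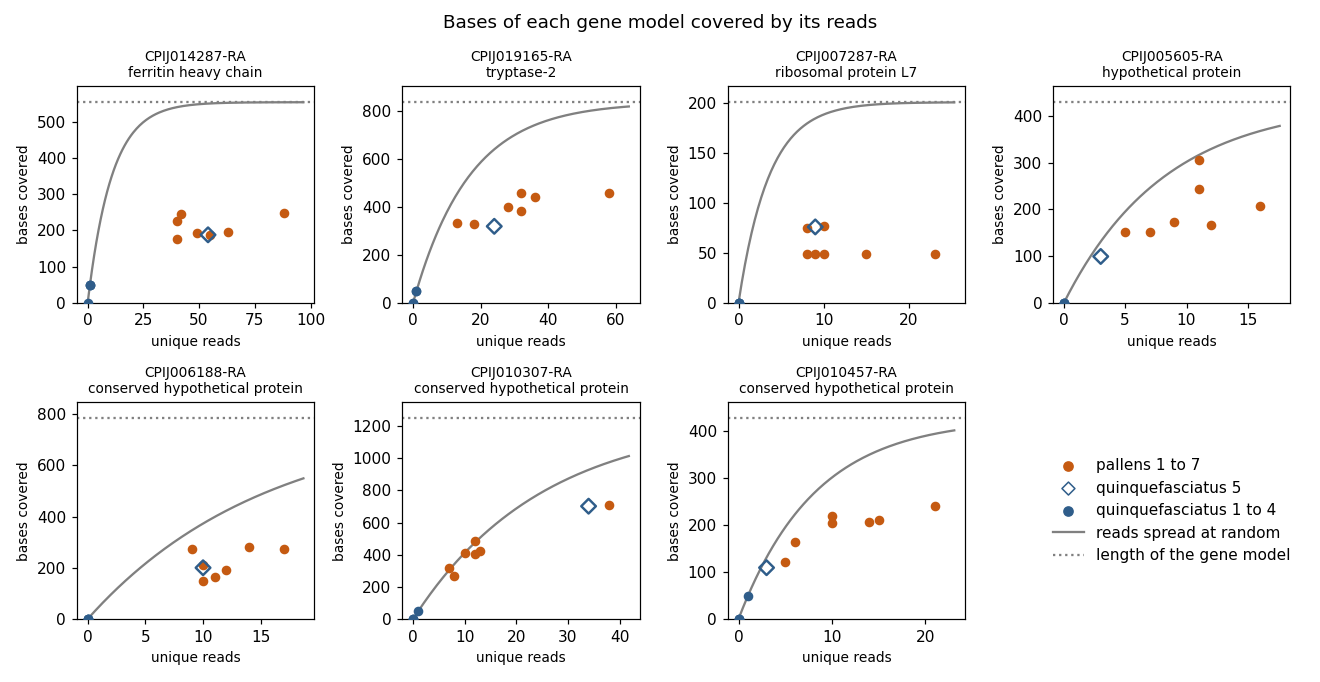
Bases covered by reads against the number of reads for the members in each pool, with the curve for reads placed at random along the model. The L7 points stay between 49 and 77 covered bases whatever the number of reads, and the ferritin points lie well under their curve.

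Relatives of the described members were read from the fit over all genes. That fit, edgeR's quasi-likelihood test with Benjamini-Hochberg adjustment, compared 7 pallens with 5 quinquefasciatus pools over 10617 genes. It called 57 genes, or 0.537%, with 36 higher in the pallens pools (0.339%) and 21 lower (0.198%). Of the members, 6 passed its filter on low counts, and only CPIJ007287-RA did not. There were 31 other models that carry the name of a member's product, 15 of them tested. The test called 0 of these relatives, with 1 at an unadjusted p under 0.05, against 13.0% of all genes tested, and DESeq2 and limma-voom called 0 each. Their median log2 difference was -0.29, and 4 were positive, against a median of 0.02 over all tested genes, of which 5577 were positive.

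Among the relatives, a second ferritin heavy chain had the members' pattern. CPIJ014068-RA lies on another scaffold, supercont3.513, at 41658 to 42299 on the plus strand. It had 125, 34, 88, 49, 61, 59 and 82 reads in pallens 1 to 7, 124 in quinquefasciatus 5, and 1, 0, 5 and 0 in quinquefasciatus 1 to 4. It missed the choice through the 5 reads of quinquefasciatus 3. Pallens 1 was the highest pallens pool for both ferritin heavy chains. This was not particular to them, since it was also the highest for the ferritins CPIJ004070-RA, CPIJ010781-RA and CPIJ019910-RA. The remaining ferritins were highest in other pallens pools. CPIJ014068-RA averaged 25.8 ± 10.4 RPKM in the pallens pools (SD, n = 7), stood at 42.2 RPKM in quinquefasciatus 5, and was at most at 1.51 RPKM in quinquefasciatus 1 to 4. Over all 12 pools the log2 difference, pallens minus quinquefasciatus, was 1.38 (SE 1.07) and did not pass, with an adjusted p of 0.587 in edgeR's quasi-likelihood test. Without quinquefasciatus 5 the log2 difference was 5.72 (SE 0.71) with an adjusted p of 0.00125, a fitted size that depends on the few reads of quinquefasciatus 1 to 4. In quinquefasciatus 5 its 124 reads covered 20.7% of the model, so these reads were stacked too.

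The abundant ferritins did not share this pattern. The ferritin light-chain model CPIJ004069-RA (supercont3.60, 319008 to 320037), the partner of the heavy chain in the iron shell, averaged 796 ± 311 RPKM in the pallens pools and 814 ± 349 RPKM in the quinquefasciatus pools (SD, n = 7 and 5). Next to it, the heavy chain-like CPIJ004070-RA (320632 to 323054) averaged 538 ± 125 RPKM in the pallens pools and 667 ± 260 RPKM in the quinquefasciatus pools. Their log2 differences were -0.02 and -0.30, with adjusted p of 0.989 and 0.620 in edgeR's quasi-likelihood test. The 2 heavy chains that were near silent in quinquefasciatus 1 to 4 were thus read at a small part of the level of this pair.

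**Figure D3:**
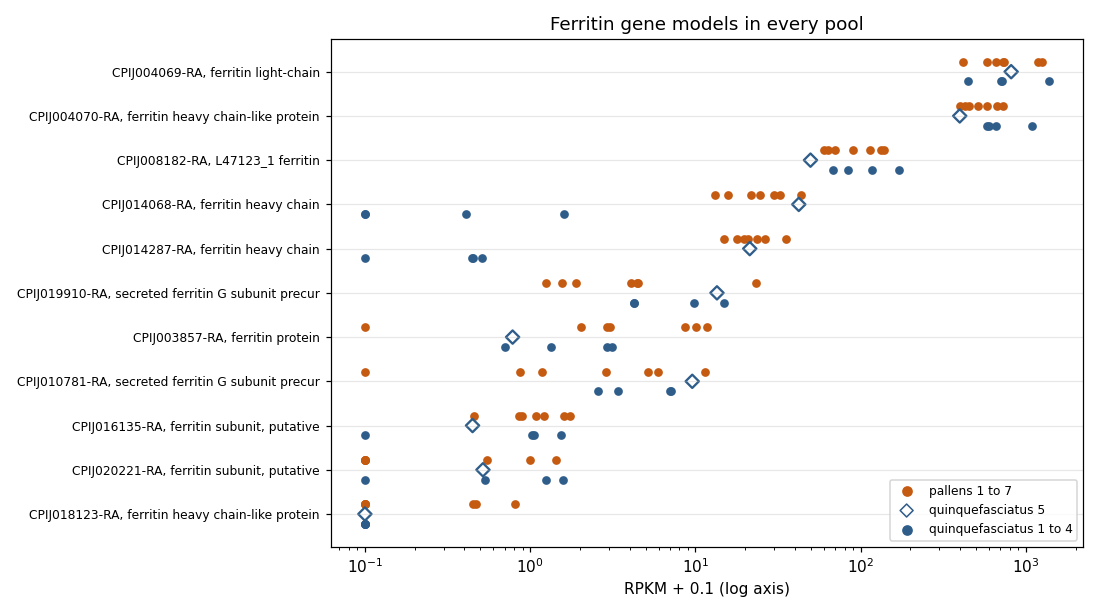
RPKM of the ferritin models in each pool on a log axis, after adding 0.1 RPKM. CPIJ014287-RA and CPIJ014068-RA are high in the pallens pools and in quinquefasciatus 5 (21.3 and 42.2 RPKM) and low in quinquefasciatus 1 to 4, while CPIJ004069-RA and CPIJ004070-RA stay at 398 RPKM or more throughout.

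Beyond the member, 23 models carry words of iron handling in their descriptions, and 17 were tested. EdgeR's quasi-likelihood test called 0 of them, with 1 at an unadjusted p under 0.05, where 13.0% of all genes tested lay, and DESeq2 and limma-voom called 0 each. Their median log2 difference was -0.10, with 5 positive. The gene under the unadjusted limit was heme oxygenase 1, CPIJ007246-RA, which breaks down heme and frees its iron, and it is named after its values were seen. It had a log2 difference of -0.73 and an adjusted p of 0.300 in the same edgeR test. The iron-responsive element-binding protein CPIJ002118-RA, which controls translation of ferritin messages in animals, had a log2 difference of -0.11. The transferrin precursors CPIJ013339-RA and CPIJ015785-RA, iron carriers of the hemolymph, had 0.96 and -0.46 with adjusted p of 0.436 and 0.631 in edgeR.

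The named kin of tryptase-2 and L7 did not stand near zero in quinquefasciatus 1 to 4 either where they were well read. The other tryptase-2, CPIJ016012-RA, averaged 18.8 ± 12.3 RPKM in the pallens pools and 31.5 ± 17.8 RPKM in the quinquefasciatus pools. Its log2 difference of -0.77 had an adjusted p of 0.465 in edgeR's quasi-likelihood test. A tryptase gamma precursor, CPIJ006079-RA, averaged 258 ± 220 RPKM in the pallens pools and 547 ± 200 RPKM in the quinquefasciatus pools. Its log2 difference was -1.09 with an adjusted p of 0.402 in edgeR, and without pallens 1 it was -1.73 and passed with an adjusted p of 0.0370. The abundant L7 model, CPIJ010020-RA, averaged 2544 ± 1001 RPKM in the pallens pools and 1826 ± 298 RPKM in the quinquefasciatus pools. Its log2 difference was 0.40, with an adjusted p of 0.470 in edgeR.

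The wider family of tryptase-2, the trypsin-like serine proteases, holds 259 models by their descriptions, of which 152 were tested. Their median log2 difference was -0.26, and 48 were positive. At an unadjusted p under 0.05 in edgeR stood 38, of which 8 were higher in the pallens pools. Over all genes tested, 13.0% stood under that limit, and 6.55% were under it and higher. EdgeR's quasi-likelihood test called 2, both lower in the pallens pools, which compares with 0.198% of all tested genes called lower. They are CPIJ002137-RA and CPIJ002141-RA, both described as serine proteases 1/2 precursors on supercont3.21. CPIJ002141-RA averaged 108 ± 54.3 RPKM in the pallens pools and 428 ± 140 RPKM in the quinquefasciatus pools, a log2 difference of -1.99 (SE 0.39, adjusted p 0.0404 in edgeR). CPIJ002137-RA averaged 13.5 ± 5.33 RPKM in the pallens pools and 37.3 ± 10.2 RPKM in the quinquefasciatus pools, a log2 difference of -1.53 (SE 0.30, adjusted p 0.0403 in edgeR). In quinquefasciatus 5 they stood with the other quinquefasciatus pools, at 36.2 RPKM for CPIJ002137-RA and 390 RPKM for CPIJ002141-RA. Leaving out 1 pool at a time moved the count of this family between 0 and 6. The 6 called without quinquefasciatus 5 included the trypsin-7 precursor CPIJ018028-RA, which was higher in the pallens pools, while the rest were lower. Its log2 difference was 2.31, with an adjusted p of 0.00514 in edgeR.

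The members lie on 7 different scaffolds. Around them, the 3 models with reads on each side gave 33 neighbours, since tryptase-2 has none and CPIJ006188-RA is the first model of its scaffold. Of the 33, 15 had at least 5 reads in each of quinquefasciatus 1 to 4. A count made after the data were seen found 7 neighbours with at most 1 read in each of quinquefasciatus 1 to 4, of which 5 had none. Over all gene models read, 14.8% had at most 1 read in each of these pools. Of the 14 neighbours tested, edgeR's quasi-likelihood test called 0, with 4 at an unadjusted p under 0.05, all higher in the pallens pools, against 6.55% of all genes tested that were higher at that limit. DESeq2 called 0 and limma-voom 1. The neighbours' median log2 difference was 0.25, and 10 were positive.

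The neighbour called by limma-voom was CPIJ006190-RA, a conserved hypothetical protein on supercont3.118 at 59889 to 62397, 36974 bases beyond CPIJ006188-RA. It had 41, 47, 38, 37, 36, 52 and 38 reads in pallens 1 to 7, 40 in quinquefasciatus 5, and 9, 6, 12 and 15 in quinquefasciatus 1 to 4. Its pattern was that of the members, at a lower contrast. It averaged 11.5 ± 1.96 RPKM in the pallens pools (SD, n = 7), was at 10.4 RPKM in quinquefasciatus 5 and ran from 1.61 to 3.43 RPKM in quinquefasciatus 1 to 4. The log2 difference over all pools was 1.37 (SE 0.43), with an adjusted p of 0.201 in edgeR's quasi-likelihood test and 0.0395 in limma-voom. Without quinquefasciatus 5 it was 2.18 (SE 0.26), with an adjusted p of 0.00110 in edgeR.

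A described neighbour within a few kilobases of CPIJ014287-RA and one of CPIJ010457-RA were read in all groups. TAR DNA-binding protein 43, CPIJ014288-RA, an RNA-binding protein 5242 bases from the ferritin, had 108 to 353 reads in the pallens pools, 336 in quinquefasciatus 5 and 335 to 497 in quinquefasciatus 1 to 4. Its log2 difference was -0.50 (SE 0.24), with an adjusted p of 0.390 in edgeR's quasi-likelihood test. Cysteine dioxygenase, CPIJ010456-RA, which oxidises cysteine, ends 938 bases from CPIJ010457-RA. It averaged 15.6 ± 2.10 RPKM in the pallens pools and 16.1 ± 4.13 RPKM in the quinquefasciatus pools, with a log2 difference of -0.12 and an adjusted p of 0.829 in edgeR. Scaffolds holding these members were thus read in quinquefasciatus 1 to 4 within a few kilobases of them.

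The described models farther out were read in every pool or hardly at all. On the far side of the L7 model, the nearest described model was alkaline phosphatase CPIJ007291-RA, 177659 bases away, with 10 to 55 reads in the pallens pools, 11 in quinquefasciatus 5 and 61 to 94 in quinquefasciatus 1 to 4. Its log2 difference was -1.34 (SE 0.43), with an adjusted p of 0.208 in edgeR. Around CPIJ005605-RA, the lysosomal glycosidase alpha-N-acetylgalactosaminidase, CPIJ005600-RA, had a log2 difference of 0.35, and the PRKCA-binding protein CPIJ005609-RA had -0.53. Their adjusted p were 0.687 and 0.333 in edgeR's quasi-likelihood test. Hydroxyacyl dehydrogenase CPIJ014286-RA beside the ferritin, the zinc finger proteins CPIJ007286-RA and CPIJ010459-RA, and lachesin CPIJ006189-RA had at most 10 reads in any pool and were not tested.

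Both models next to CPIJ010307-RA were unread in quinquefasciatus 1 to 4. CPIJ010306-RA lies 30 bases from it, at 208749 to 208967 on the plus strand. It had 2, 14, 2, 2, 1, 2 and 5 reads in pallens 1 to 7, 23 in quinquefasciatus 5 and none in quinquefasciatus 1 to 4. CPIJ010308-RA lies 2518 bases to the other side, at 213013 to 214457, and had 2, 7, 1, 2, 3, 0 and 2 reads in pallens 1 to 7, 51 in quinquefasciatus 5 and none in quinquefasciatus 1 to 4. Quinquefasciatus 5 and pallens 2 were the highest pools of both, but neither had at least 5 reads in every pallens pool, and CPIJ010308-RA was at 19.2 times the pallens mean RPKM in quinquefasciatus 5. Without strand, reads of CPIJ010306-RA and of the member on the opposite strand cannot be told apart where they reach across the short gap.

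Both edges of this stretch were read in quinquefasciatus 1 to 4. On its near side, CHKov1, CPIJ010305-RA, whose namesake in *Drosophila melanogaster* is linked to virus and insecticide resistance, had 68, 160, 42, 41, 21, 37 and 84 reads in pallens 1 to 7. It had 134 reads in quinquefasciatus 5 and 73, 41, 114 and 73 in quinquefasciatus 1 to 4. Its log2 difference was -0.35 (SE 0.44), with an adjusted p of 0.752 in edgeR. On the far side, CPIJ010310-RA had 1 to 17 reads in the pallens pools, 19 in quinquefasciatus 5 and 7, 9, 5 and 8 in quinquefasciatus 1 to 4. Between the edges, CPIJ010309-RA had at most 1 read in any pool. The next described model, a putative juvenile hormone-inducible protein, CPIJ010315-RA, had 5 to 67 reads in the pallens pools, 67 in quinquefasciatus 5 and 18 to 145 in quinquefasciatus 1 to 4, with an adjusted p of 0.443 in edgeR's quasi-likelihood test.

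**Figure D4:**
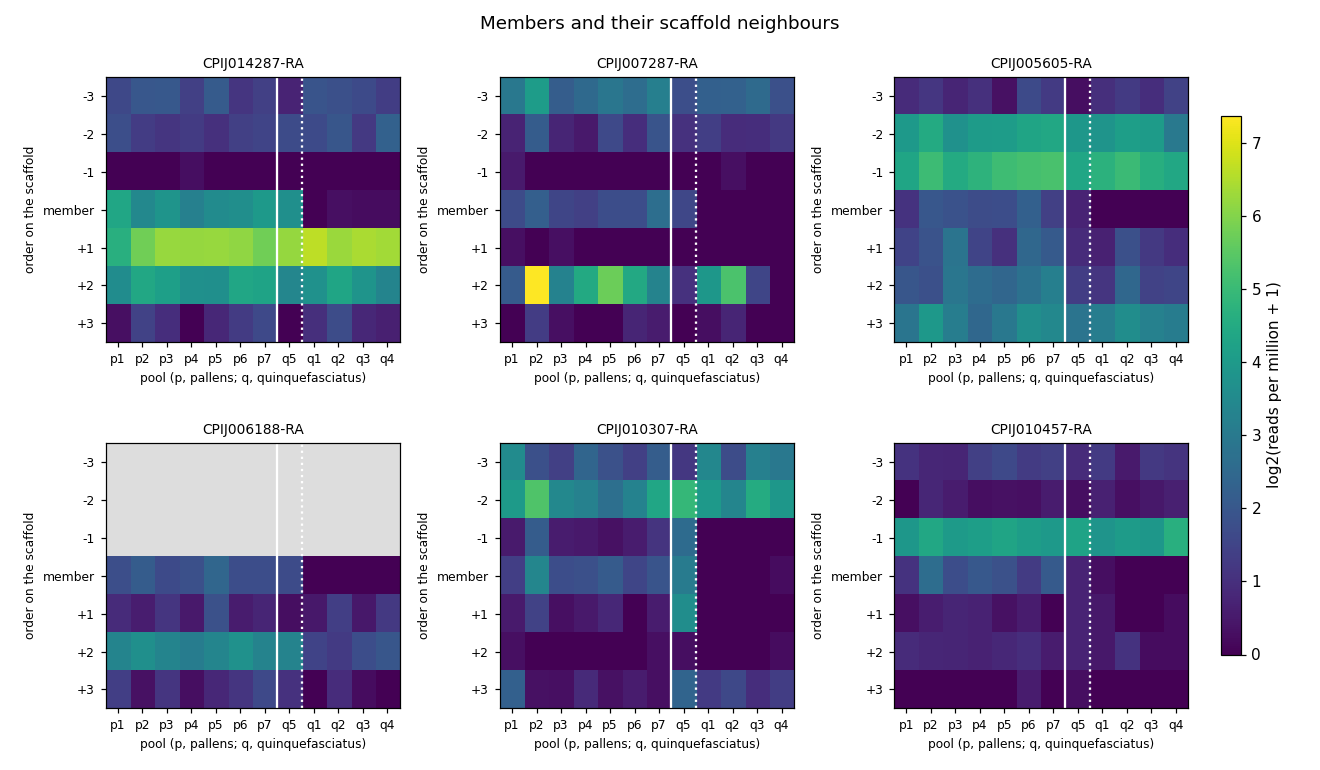
Levels of 6 members and of up to 3 neighbours on each side of each, as log2(CPM + 1), with pallens 1 to 7 left of the solid line, quinquefasciatus 5 next and quinquefasciatus 1 to 4 right of the dotted line. Grey marks no model with reads; the neighbour after CPIJ014287-RA and the one before CPIJ010457-RA are read in all pools, and those on both sides of CPIJ010307-RA are dark in quinquefasciatus 1 to 4.

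The tested gene models whose profiles over the 12 pools lay closest to the members' mean profile were sought. The measure was the root mean square difference of centred log2(CPM + 1), with library totals scaled by TMM factors. The 5 closest were CPIJ016155-RA, CPIJ007565-RA, CPIJ011606-RA, CPIJ002370-RA and the neighbour CPIJ006190-RA, at 0.258, 0.277, 0.284, 0.305 and 0.313, against a median of 1.12 over all genes tested. CPIJ007565-RA is a ubiquitin-conjugating enzyme, which passes ubiquitin on to target proteins, and the others are hypothetical. None of them was near silent. CPIJ007565-RA had 212 to 266 RPKM in the pallens pools, 197 RPKM in quinquefasciatus 5 and 56.1 to 84.6 RPKM in quinquefasciatus 1 to 4. CPIJ016155-RA had 68.8 to 123 RPKM in the pallens pools, 81.9 RPKM in quinquefasciatus 5 and 12.1 to 23.1 RPKM in quinquefasciatus 1 to 4. All 12 pools were used to find these models. Their contrast between the pallens pools and quinquefasciatus 1 to 4, and the place of quinquefasciatus 5, were thus fixed by the search. The choice of these models depends on the added constant: with 0.5 in place of 1, 1 of the 5 was among the closest.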

How the data were processed

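The authors deposited a table for every pool. Per the file headers its columns are the unique read count of a gene model, its length, the covered percent of that length, and RPKM. The deposited RPKM equalled the count over length and library total. Models missing from a table were set to 0. What mapped and counted the reads, and on which build, is not given in the sources used. Coordinates are those of the files, for whole gene models; 89.24% of lengths were multiples of 3, so they are mostly coding lengths. The RefSeq table at hand matched 0 identifiers, so no sequence is shown. Sequence differences between pools and reference were not analysed here.

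The members and gene lists were chosen with earlier results of these data known. Counts were tested in R 4.3.3 with edgeR 4.0.16 and its quasi-likelihood test (TMM, filterByExpr, robust dispersion, all 12 pools, pallens minus quinquefasciatus, Benjamini-Hochberg adjusted p under 0.05), which was tested on simulated data. SEs come from its F statistic. The biological coefficient of variation was 42.0%. CPM here is a count scaled by the library total. Distances between pools and the search for the most alike models used CPM with library totals scaled by TMM factors instead. Alternatives were RLE factors, other filters, DESeq2 1.42.0, limma-voom (limma 3.58.1), pools left out in turn and other limits of the choice. Bases covered were taken from the deposited coverage percent and compared with the mean expected of 49-base reads placed at random. Pools are numbered within a subspecies in the order of the sample records. The rule for named genes took the members, called neighbours, relatives and iron handling genes, the nearest described neighbour on each side, models missing the choice by 1 read, and the 5 most alike. The other genes named were chosen after their values were seen: the remaining ferritins, iron handling genes, tryptases, proteases and L7 model, CPIJ006190-RA as a neighbour, and CPIJ010306-RA, CPIJ010308-RA, CPIJ010309-RA and CPIJ010310-RA.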

Additional observations from a re-analysis of the deposited data

Results flagged for a closer look

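In the 14 groups of pools examined, 7 members by 2 subspecies, a pool standing far from the rest of its group was found 7 times. Chance marks about 1 in 20 groups when no pool is chosen by its reads, so that rate does not apply to these groups. In 6 of the 7 cases the pool was quinquefasciatus 5, the highest of 5 quinquefasciatus pools. This was so for the ferritin heavy chain CPIJ014287-RA at 21.3 RPKM, tryptase-2 CPIJ019165-RA at 6.26 RPKM, the L7 model CPIJ007287-RA at 9.78 RPKM, CPIJ005605-RA at 1.53 RPKM, CPIJ006188-RA at 2.79 RPKM and CPIJ010307-RA at 5.95 RPKM. The choice of members held the other 4 pools near 0, so it largely set such a gap in advance, and these cases are no test of the members. For CPIJ007287-RA, CPIJ005605-RA and CPIJ006188-RA those pools had no read, so any read in quinquefasciatus 5 would give the widest possible gap. For CPIJ010457-RA, at 1.54 RPKM in quinquefasciatus 5, the gap was not large enough. In the remaining case pallens 2, at 7.53 RPKM, stood above the other 6 pallens pools for CPIJ010307-RA.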

How the results depend on the processing

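The 57 genes called became 295 with DESeq2 and 92 with limma-voom, and ranged from 9 to 230 with 1 pool left out, with 230 without pallens 1 and 209 without quinquefasciatus 5. The protease list went to 7 with DESeq2 and ranged from 0 to 6 with 1 pool left out. Scaffold neighbours called were 1 with limma-voom and 0 to 1 with 1 pool left out; relatives and iron handling genes were also 0 to 1 each. Their only calls were CPIJ006190-RA and CPIJ014068-RA without quinquefasciatus 5 and CPIJ006079-RA without pallens 1. The choice of members gave 3 models with at most 0 reads, 11 with at most 2, 13 with at least 3 and 2 with at least 10, and 7 to 11 with 1 pool left out. It gave 11 without quinquefasciatus 3. Counting quinquefasciatus 5 with the pallens pools, tried after seeing the data, left 5. RLE factors and other filters on low counts kept these counts within 1.5 times. No paired analysis was possible because the pool numbers used here follow the order of the sample records and pair no samples across subspecies. Most members have under 40 reads per pool, so differences among pallens pools are limited by counting error, and a count of 0 allows up to 3 reads.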
